A study of Mus musculus with 37 samples.

Results

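The collagen gene family was followed here through cultured cardiac fibroblasts (CFs), neonatal rat ventricular myocytes (NRVMs) and the nonmyocytes of injured mouse hearts. Members were all genes whose symbol is Col, a number, a and a number. They were 44 of the 30892 genes listed for CFs, 41 of the 20158 listed for NRVMs and 44 of the 31053 listed for each single-cell library. This rule reads symbols and no measured value. Col1a2, Col6a3 and Col23a1 had no row of their own in the NRVM counts used here.

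The study asked how ENPP1, an ectonucleotidase that splits extracellular ATP into AMP and pyrophosphate, alters repair of the injured heart through the exchange of signals between myocytes and fibroblasts. The CFs were immortalized wild type C57BL/6 mouse cells, kept in serum-free medium and then given myocyte conditioned medium (MCndM). The MCndM came from NRVMs exposed to vehicle, ENPP1, ATP, ENPP1+ATP or AMP, and RNA was taken after 24 or 48 h, with 2 libraries in each of 10 groups. The NRVMs were wild type Sprague-Dawley rat cells studied at 24 h under the same 5 agents, with 3 libraries in each group. The labels describe the NRVM agent too as conditioned medium. The study's text describes agents added to NRVMs to make MCndM, and also MCndM given to myocytes. For NRVMs the agent names below stand for the labelled treatment. Single-cell libraries held nonmyocytes taken 7 days after myocardial infarction from C57BL/6 mice, with 1 library from ENPP1CKO hearts and 1 from control hearts. In ENPP1CKO animals a tamoxifen-activated Cre under Col1a2 regulatory sequence (Col1a2CreERT) deleted floxed ENPP1 (ENPP1 fl/fl), with tamoxifen given from before injury until harvest. The controls were littermates, which the labels call wild type. How many hearts went into each library was not stated in the sources used here.

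Collagens are trimeric proteins of the extracellular matrix. Fibrillar collagens form the tensile fibers of the cardiac interstitium and of scar, type IV chains form the sheet of basement membranes, type VI forms beaded filaments around cells, and fibril-associated collagens (FACITs) sit on fibril surfaces. Procollagen chains are hydroxylated and folded in the endoplasmic reticulum, trimmed outside the cell and cross-linked by lysyl oxidases, and cardiac fibroblasts are the main source of fibrillar collagen after infarction.

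Depth ranged from 32184799 to 115824659 counts over the 20 CF libraries and from 13481389 to 16977980 over the 15 NRVM libraries. Levels are given as CPM, a gene's counts scaled to a common library total, after adjustment for library composition. The labels do not say that libraries of a group came from separate cultures, so p-values measure the spread between these libraries, which may be technical. In bulk RNA, fewer cells of a type and less RNA per cell cannot be told apart. The summed level of 10 collagen-free fibroblast markers was 1835 to 1953 CPM in vehicle CFs at 24 h, 913 to 948 with ENPP1+ATP MCndM and 759 to 825 with AMP MCndM. Of the 9 of these markers tested, 6 fell and 2 (Dcn and Fbln1) rose with ENPP1+ATP MCndM at 24 h. Lum, counted among these falls, and Mfap5 both mark many fibroblasts in tissue but stayed below 1 CPM in all CF libraries. The summed macrophage markers were 3.15 to 3.17 CPM in vehicle CFs at 24 h, 21.6 to 27.7 with ENPP1+ATP, 46.1 to 46.2 with AMP and 7.10 to 7.47 with ATP MCndM. With ATP MCndM at 24 h the fibroblast sum was 1164 to 1221 CPM. At 48 h it was 1923 to 2035 CPM with vehicle, 1135 to 1184 with ENPP1+ATP and 1222 to 1306 with AMP, while the macrophage sum was 3.83 to 3.93 CPM with vehicle, 56.4 to 66.4 with ENPP1+ATP and 62.2 to 72.2 with AMP. Smooth muscle or pericyte markers summed to 163 to 170 CPM with vehicle at 48 h, 400.01 to 415 with ENPP1+ATP and 443 to 468 with AMP, and Schwann or glial markers to 104 to 106, 209.6 to 212 and 205 to 209. The part of these marker levels in the collagen results was not tested.

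Promoter sequences are shown for 4 members that bracket the CF results, with Col3a1 and Col11a1 among those that fell most and Col7a1 and Col27a1 among those that rose. Each is the 250 bases before the RefSeq transcript start on GRCm38.p6, read 5′ to 3′ on the plus strand. The windows are chr1:45311288-45311537 for Col3a1, chr3:114030290-114030539 for Col11a1, chr9:108953336-108953585 for Col7a1 and chr4:63215162-63215411 for Col27a1. None overlapped an annotated exon. The annotated span of Col27a1 begins at 63214004, upstream of its window, so a start other than the RefSeq one is annotated for that gene. Capitals mark matches to 3 motifs, each searched on both strands. These were CCAAT, which reads ATTGG on the other strand, the TATA box motif TATAAA, and the GC box motif GGGCGG.
Col3a1: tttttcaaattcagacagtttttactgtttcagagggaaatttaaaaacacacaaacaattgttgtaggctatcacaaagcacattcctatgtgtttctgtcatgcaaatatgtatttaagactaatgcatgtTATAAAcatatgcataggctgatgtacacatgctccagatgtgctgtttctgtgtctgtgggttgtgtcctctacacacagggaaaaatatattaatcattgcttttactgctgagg
Col11a1: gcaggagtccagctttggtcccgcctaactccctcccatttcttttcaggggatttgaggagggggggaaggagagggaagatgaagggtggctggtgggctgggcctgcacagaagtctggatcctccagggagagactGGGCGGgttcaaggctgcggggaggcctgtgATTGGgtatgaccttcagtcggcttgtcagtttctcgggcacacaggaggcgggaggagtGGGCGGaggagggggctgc
Col7a1: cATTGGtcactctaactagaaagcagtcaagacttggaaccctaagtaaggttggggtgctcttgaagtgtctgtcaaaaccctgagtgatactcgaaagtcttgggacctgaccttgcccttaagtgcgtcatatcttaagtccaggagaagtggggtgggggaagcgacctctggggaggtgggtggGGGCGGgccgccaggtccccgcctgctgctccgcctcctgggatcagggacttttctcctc
Col27a1: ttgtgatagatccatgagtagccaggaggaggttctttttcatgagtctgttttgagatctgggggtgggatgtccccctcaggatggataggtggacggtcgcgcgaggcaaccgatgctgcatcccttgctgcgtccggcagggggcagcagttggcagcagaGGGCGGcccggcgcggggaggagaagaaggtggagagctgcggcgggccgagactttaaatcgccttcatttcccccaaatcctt

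Col3a1 held a TATAAA that begins 117 bases before the start and no match to the other motifs. Col11a1 held GGGCGG at 2 places and ATTGG at 1, Col7a1 held ATTGG and GGGCGG once each, and Col27a1 held GGGCGG alone. Promoters were matched for 35 of the 44 members. CCAAT was found in 13 of these 35 and in 33.8% of all 32851 promoters of the same length. TATAAA was found in 5 of 35 and 12.4% of all, and GGGCGG in 21 of 35 and 32.7% of all. A member counted if any of its promoters held the motif, whereas the share of all counts single promoters, so the units differ. A match is a description of letters and not evidence of binding.

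In vehicle CFs at 24 h the family took 1.40 ± 0.0549% of all counts (SD, n = 2). Per kilobase of transcript, Col1a1, a chain of type I collagen, stood highest at 678 ± 29.0 CPM per kb (SD, n = 2). Col6a1, a type VI chain, followed at 345 ± 31.6 CPM per kb and Col3a1, the type III chain, at 331 ± 8.28, and these neighbors lay within their spread of each other. Col6a2 stood at 236 ± 24.8 CPM per kb and Col1a2, the partner chain of type I, at 196 ± 2.71. Col11a1, a minor fibrillar chain, stood at 53.6 ± 0.487 CPM per kb. Col6a3 stood at 0.851 ± 0.381 CPM per kb and Col15a1 at 0.123 ± 0.00934, the first far below Col6a1 and Col6a2.

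The collagen share of CF RNA was lower with ENPP1+ATP and AMP MCndM. With ENPP1+ATP MCndM it was 0.754 ± 0.0148% at 24 h and 0.815 ± 0.00803% at 48 h, and with AMP MCndM 0.621 ± 0.0363% and 0.863 ± 0.0458% (SD, n = 2 each). Vehicle at 48 h stood at 1.39 ± 0.0705%. With ATP MCndM the share was 1.04 ± 0.0363% at 24 h and 1.29 ± 0.00480% at 48 h, and with ENPP1 MCndM 1.37 ± 0.0581% and 1.33 ± 0.0386%. The shares with ENPP1+ATP, AMP and ATP MCndM lay below every vehicle library.

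Of the 44 members, 38 passed the filter on low counts and were tested by edgeR's quasi-likelihood test with Benjamini-Hochberg adjustment over all 17879 genes tested. Those not tested were Col10a1, Col13a1, Col26a1, Col6a6, Col9a1 and Col9a2. With ENPP1+ATP MCndM at 24 h, 17 of 38 members fell, beside 25.3% of all genes tested, and 6 rose, beside 23.9%, which makes 23 called in either direction beside 49.1%. At 48 h, 18 fell beside 24.4% and 5 rose beside 20.8%, or 23 in either direction beside 45.2%. With AMP MCndM 20 fell at 24 h beside 27.5% and 5 rose beside 25.3%, and at 48 h 14 fell beside 22.9% and 5 rose beside 21.1%. In either direction AMP MCndM called 25 beside 52.8% and 19 beside 44.0%. The shares of members that fell, but not those that rose, were thus above the share over all genes. The median log2 change of the 38 members was -0.64 with ENPP1+ATP and -0.73 with AMP MCndM at 24 h, and -0.41 and -0.43 at 48 h, whereas the medians over all genes tested lay between -0.03 and 0. These comparisons share their vehicle libraries, so their likeness is no independent evidence. The fibrillar group, the largest by role, gave the most falls, with 8 of 11 tested members lower at 24 h under each medium. The falls were not confined to it. With AMP MCndM at 24 h 4 of 5 type VI and 2 of 2 network members also fell, and with ENPP1+ATP 2 of 5 and 1 of 2.

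**Figure D1:**
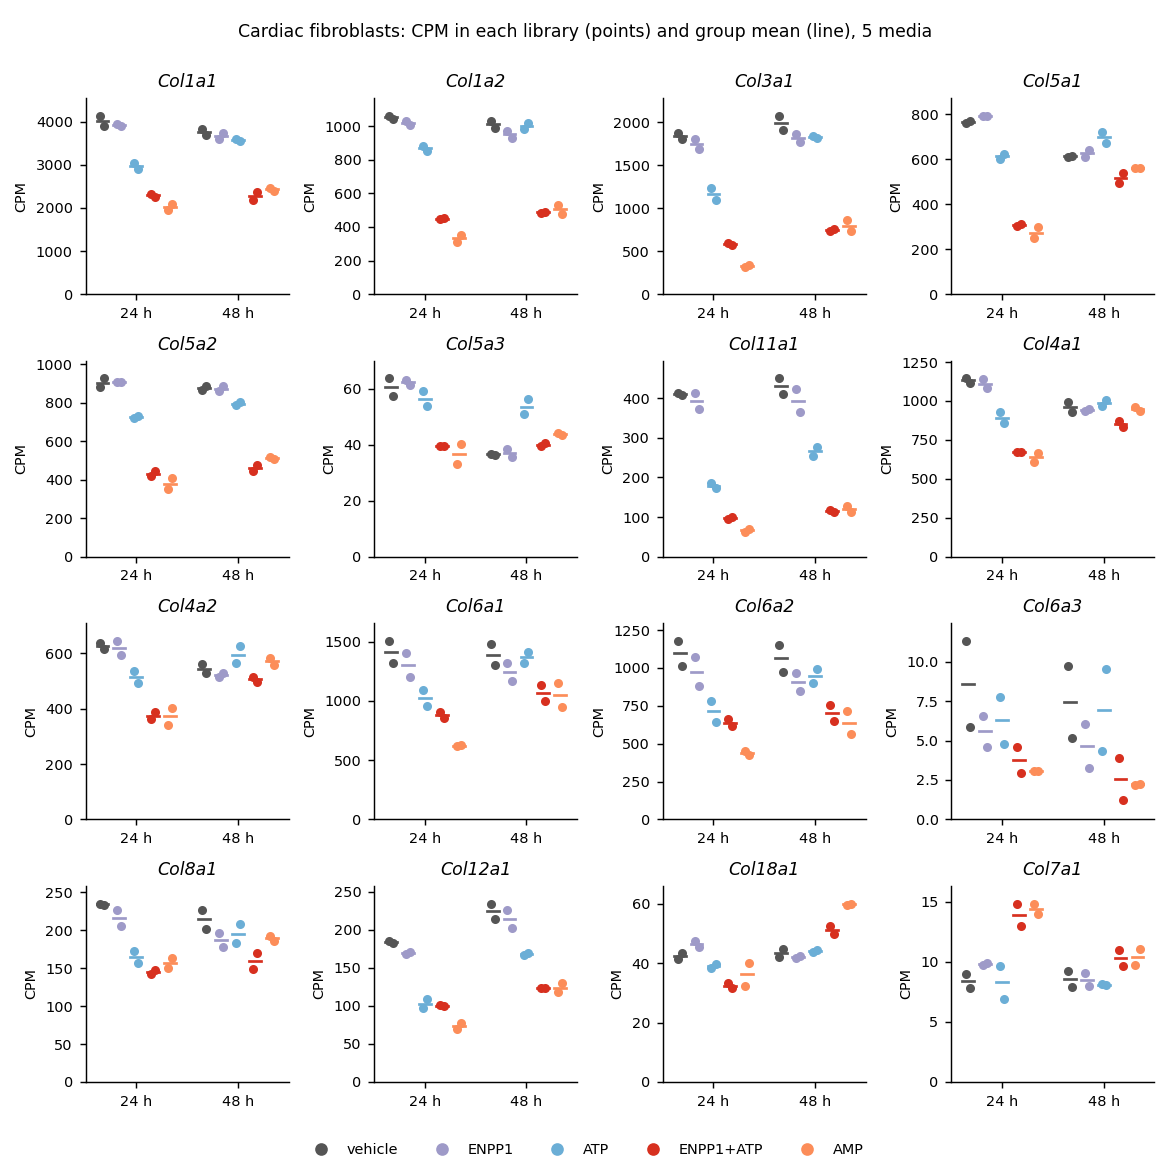
Levels of collagen genes in CF libraries by medium and time. Each point is 1 library (CPM, axis from 0), with lines at the mean of the 2 libraries of a group. For Col1a1, Col3a1 and Col11a1 the ENPP1+ATP and AMP libraries lie below all vehicle and ENPP1 libraries at both times.

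Col1a1 lies on chromosome 11 at chr11:94936224-94953042 (GRCm38). Its levels at 24 h were 4140 and 3897 CPM with vehicle, 2336 and 2245 with ENPP1+ATP, 1942 and 2093 with AMP and 3036 and 2915 with ATP MCndM. At 48 h they were 3833 and 3686 CPM with vehicle, 2184 and 2376 with ENPP1+ATP, 2459 and 2403 with AMP and 3605 and 3555 with ATP MCndM. The groups did not overlap at either time, although the ATP libraries at 48 h lay close under the vehicle ones. Col1a1 fell by 0.81 ± 0.05 on the log2 scale with ENPP1+ATP MCndM at 24 h (SE, edgeR adjusted p = 3.06e-12) and by 0.99 ± 0.05 with AMP MCndM (adjusted p = 5.89e-14). At 48 h the log2 changes were -0.72 ± 0.05 (adjusted p = 2.56e-11) and -0.63 ± 0.05 (3.05e-10). ATP MCndM gave -0.43 at 24 h (adjusted p = 2.14e-06) and -0.07 at 48 h (0.568), so the call with ATP held at 24 h only.

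Col1a2, the other type I chain, lies at chr6:4504814-4541544. It read 1061 and 1040 CPM with vehicle, 446 and 454 with ENPP1+ATP, 309 and 354 with AMP and 883 and 852 with ATP MCndM at 24 h. At 48 h it read 1032 and 991 CPM with vehicle, 483 and 489 with ENPP1+ATP, 531 and 476 with AMP and 984 and 1016 with ATP. The ENPP1+ATP and AMP libraries lay far below vehicle at both times, and the ATP libraries overlapped vehicle at 48 h. The log2 changes were -1.22 ± 0.06 with ENPP1+ATP (edgeR adjusted p = 1.05e-14) and -1.66 with AMP (3.32e-17) at 24 h. At 48 h they were -1.06 (9.30e-14) and -1.01 (2.09e-13).

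Col3a1, the fibrillar chain of pliable tissue and early scar, lies at chr1:45311538-45349706, beside Col5a2 on the same chromosome. At 24 h it read 1875 and 1810 CPM with vehicle, 594 and 577 with ENPP1+ATP, 313 and 335 with AMP and 1231 and 1097 with ATP MCndM. At 48 h it read 2078 and 1914 CPM with vehicle, 730 and 754 with ENPP1+ATP, 867 and 731 with AMP and 1847 and 1819 with ATP. The AMP libraries at 24 h were the lowest of all 20. Col3a1 fell by 1.65 ± 0.07 on the log2 scale with ENPP1+ATP (edgeR adjusted p = 3.20e-15) and by 2.51 with AMP (3.14e-18) at 24 h. At 48 h it fell by 1.43 (1.82e-14) and 1.32 (6.86e-14). The AMP effect was smaller at 48 h than at 24 h, with a difference of 1.19 ± 0.09 (adjusted p = 1.17e-09).

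Col11a1, which helps set fibril diameter, lies at chr3:114030540-114220718. At 24 h it read 414 and 409 CPM with vehicle, 94.3 and 102 with ENPP1+ATP, 62.5 and 70.3 with AMP and 186 and 172 with ATP MCndM. At 48 h it read 450 and 410 CPM with vehicle, 118 and 112 with ENPP1+ATP, 129 and 113 with AMP and 255 and 277 with ATP. No ENPP1+ATP, AMP or ATP library reached a vehicle library, and the ATP libraries lay between. Col11a1 had the greatest fall of the called members with mean log2 CPM of at least 0 at 24 h under both media, by 2.07 ± 0.08 on the log2 scale with ENPP1+ATP (edgeR adjusted p = 3.95e-13) and by 2.63 ± 0.09 with AMP (1.35e-14). At 48 h it fell by 1.90 (1.08e-12) and 1.83 (1.60e-12). With ATP MCndM it fell by 1.20 at 24 h (1.61e-08) and by 0.69 at 48 h (1.15e-05).

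The type V chains, which start fibril assembly with type I, differed among themselves by time. Col5a1 read 762 and 769 CPM with vehicle, 301 and 312 with ENPP1+ATP and 248 and 298 with AMP MCndM at 24 h, and 611 and 615, 492 and 536, and 559 and 560 CPM at 48 h. The gap from vehicle at 24 h had mostly closed at 48 h. Its log2 changes were -1.32 ± 0.06 (edgeR adjusted p = 1.19e-14) and -1.49 (9.99e-16) at 24 h, then -0.25 (1.26e-03) and -0.13 (0.0827) at 48 h. The tested difference between times was 1.07 ± 0.09 with ENPP1+ATP (1.36e-09) and 1.35 ± 0.09 with AMP (2.25e-11). Col5a1 also fell in vehicle CFs between 24 and 48 h, by 0.32 on the log2 scale (1.77e-03).

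Col5a2 kept its fall. It read 880 and 925 CPM with vehicle, 416 and 446 with ENPP1+ATP and 349 and 410 with AMP MCndM at 24 h, and 865 and 887, 444 and 476, and 517 and 509 CPM at 48 h. Groups did not overlap, and the log2 changes were -1.07 ± 0.06 (edgeR adjusted p = 1.24e-13) and -1.25 (5.16e-15) at 24 h and -0.93 (1.19e-12) and -0.77 (3.45e-11) at 48 h. Col5a3 turned with time. It read 63.7 and 57.5 CPM with vehicle, 39.5 and 39.5 with ENPP1+ATP and 33.2 and 40.1 with AMP at 24 h, and 36.6 and 36.5, 39.4 and 40.5, and 44.1 and 43.4 CPM at 48 h. Vehicle was the highest of the 3 groups at 24 h and the lowest at 48 h. Col5a3 fell by 0.62 ± 0.08 (1.92e-07) and 0.72 (1.17e-08) at 24 h, while at 48 h the log2 changes were 0.13 (0.192) and 0.26 (7.63e-03). In vehicle itself it fell by 0.73 from 24 to 48 h (2.04e-06), and with ATP MCndM at 48 h it rose by 0.55 (2.08e-05).

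**Figure D2:**
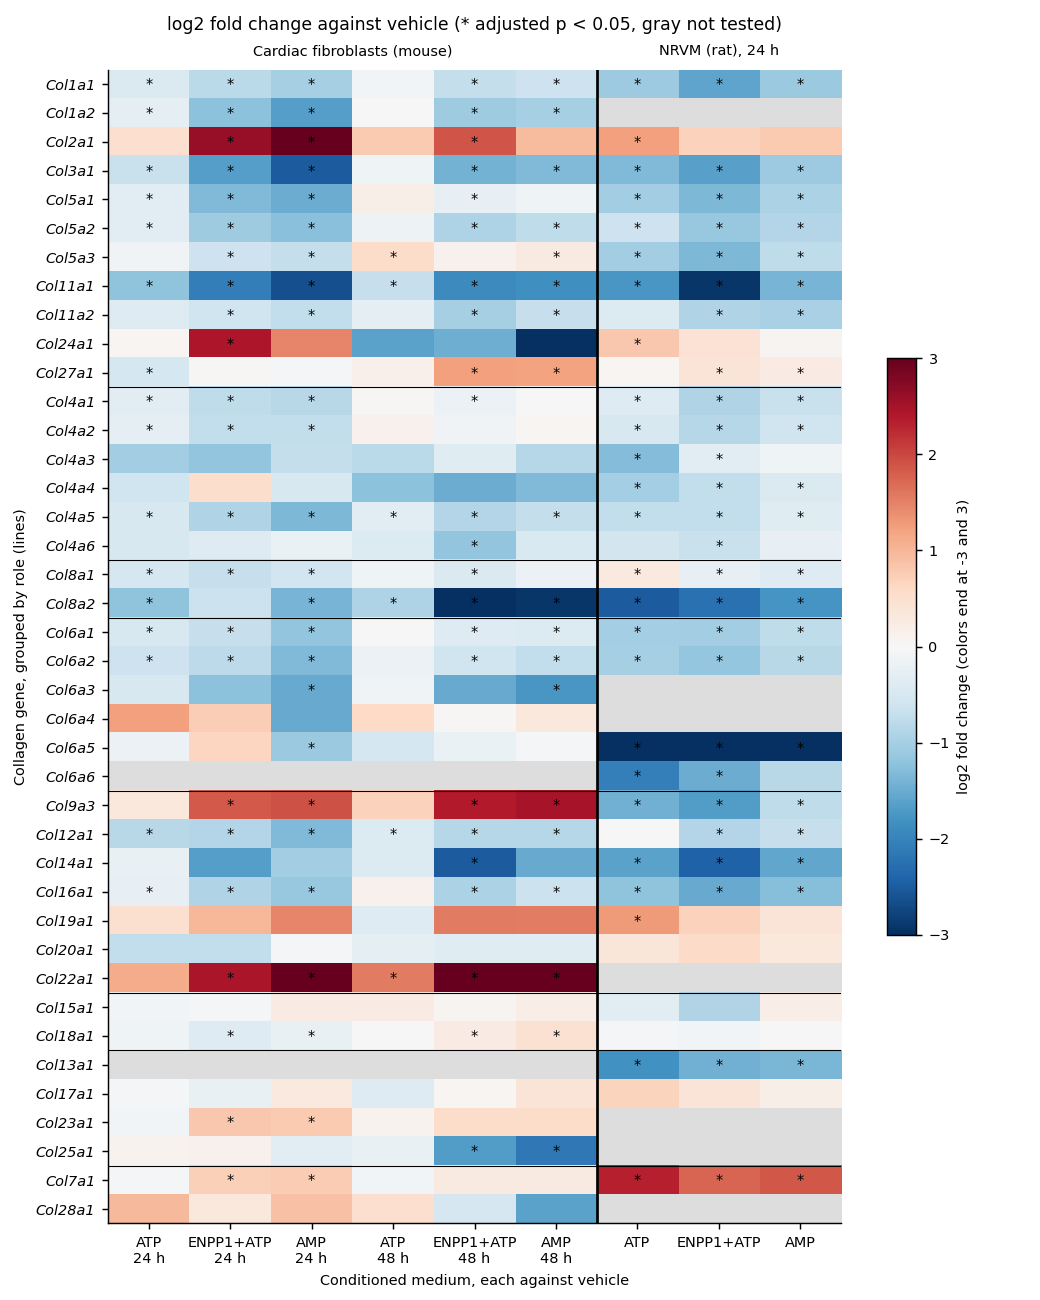
Log2 changes of tested collagen genes against vehicle, with 1 row per gene and 1 column per comparison in CFs and NRVMs. Color gives the log2 change of CPM and a mark shows an adjusted p under 0.05. Most marked cells among fibrillar rows are falls, while Col7a1 and Col27a1 rows hold marked rises.

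The basement membrane chains Col4a1 and Col4a2 fell at 24 h and lay near vehicle at 48 h. Col4a1 read 1145 and 1118 CPM with vehicle, 670 and 674 with ENPP1+ATP and 611 and 664 with AMP MCndM at 24 h, and 992 and 930, 871 and 833, and 963 and 935 CPM at 48 h. The groups were apart at 24 h, and at 48 h the AMP libraries overlapped vehicle. Its log2 changes were -0.75 ± 0.05 (edgeR adjusted p = 7.78e-12) and -0.83 (9.77e-13) at 24 h, then -0.17 (6.63e-03) and -0.02 (0.802) at 48 h. The call at 48 h with ENPP1+ATP was lost without ENPP1+ATP replicate 2 (adjusted p = 0.0826) or vehicle replicate 1 (0.121). Col4a2 gave -0.74 ± 0.07 (2.33e-09) and -0.75 (1.60e-09) at 24 h and -0.10 (0.213) and 0.07 (0.432) at 48 h. The genes lie head to head on chromosome 8 of GRCm38, where Col4a1 ends at 11312826 and Col4a2 starts at 11312805, so reads in the overlap cannot be told apart without strand. Col4a5, a chain of other basement membranes, fell from 209 and 208 CPM to 111 and 112 with ENPP1+ATP and 75.9 and 87.9 with AMP at 24 h. It stayed low at 48 h, at 132 and 125 and at 149 and 138 beside 245 and 229 CPM with vehicle. Col4a6 read 4.46 and 3.91 CPM with vehicle and 1.72 and 1.95 with ENPP1+ATP at 48 h, a fall of 1.19 ± 0.20 on the log2 scale (2.54e-05).

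Type VI chains varied more between libraries. Col6a1 read 1507 and 1324 CPM with vehicle, 907 and 852 with ENPP1+ATP and 616 and 628 with AMP MCndM at 24 h, and 1478 and 1303, 1139 and 997, and 1149 and 945 CPM at 48 h. Treated libraries lay below vehicle at both times. The log2 changes were -0.69 ± 0.12 (edgeR adjusted p = 2.08e-04) and -1.19 (1.12e-06) at 24 h and -0.38 (1.52e-02) and -0.41 (1.05e-02) at 48 h. Both 48 h calls were lost when vehicle replicate 1 (0.116 and 0.0874) or the treated replicate 2 (0.123 and 0.106) was left out. Col6a2 fell by 0.78 ± 0.15 (1.25e-03) and 1.33 (1.84e-05) at 24 h and by 0.60 (7.17e-03) and 0.73 (2.27e-03) at 48 h. With ENPP1+ATP at 48 h its call was lost without ENPP1+ATP replicate 2 (0.0622) or vehicle replicate 1 (0.0613). Col6a3 read 11.3 and 5.88 CPM with vehicle at 24 h and 3.04 and 3.09 with AMP. Vehicle replicates differed nearly as much as the groups, and its AMP calls (-1.52, 0.0445 at 24 h and -1.74, 0.0396 at 48 h) were each lost when vehicle replicate 1 (0.302 and 0.237), AMP replicate 1 (0.132 at both times) or AMP replicate 2 (0.142 and 0.139) was left out. With ENPP1+ATP its log2 changes were -1.22 ± 0.57 (0.104) and -1.51 (0.0645), neither called. The 48 h change was called by DESeq2 (0.0282), with the replicate block (0.0323), with all genes of at least 1 count (1.80e-15) and without ENPP1+ATP replicate 1 (0.0276) or vehicle replicate 2 (0.0493), and the 24 h change with all genes of at least 1 count (5.90e-12).

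The network collagen Col8a1, found in vessel walls and remodeling heart, read 235 and 233 CPM with vehicle, 142 and 147 with ENPP1+ATP and 150 and 163 with AMP MCndM at 24 h. All treated libraries lay below vehicle, with log2 changes of -0.70 ± 0.08 (edgeR adjusted p = 2.22e-07) and -0.58 (2.04e-06). At 48 h they were -0.43 (1.09e-04) and -0.18 (0.0636). Its relative Col8a2 read 4.82 and 3.70 CPM with vehicle, 0.574 and 0.108 with ENPP1+ATP and 0.601 and 0.520 with AMP at 48 h. Treated libraries were all below 1 CPM, and the falls were 3.58 ± 0.36 (1.09e-08) and 2.93 ± 0.33 (8.54e-08) on the log2 scale. At 24 h Col8a2 gave -0.65 (0.0541) with ENPP1+ATP and -1.39 (1.86e-04) with AMP.

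Among FACITs, Col12a1, which binds fibrils in tissue under load, fell at both times. It read 185 and 183 CPM with vehicle, 101 and 99.5 with ENPP1+ATP, 70.2 and 76.8 with AMP and 97.5 and 109 with ATP MCndM at 24 h. The ATP libraries lay beside the ENPP1+ATP ones, well under vehicle. Its log2 changes at 24 h were -0.88 ± 0.06 with ENPP1+ATP (edgeR adjusted p = 1.45e-11), -1.32 with AMP (8.33e-15) and -0.84 with ATP (1.84e-09). At 48 h they were -0.86 (1.89e-11), -0.85 (2.21e-11) and -0.42 (3.49e-05). Col16a1 fell by 0.90 ± 0.07 (4.37e-10) and 1.15 (6.75e-12) at 24 h and by 0.96 (2.11e-10) and 0.65 (8.11e-08) at 48 h. Col9a3 and Col22a1, FACITs known from cartilage and from muscle junctions, rose from low levels. Col9a3 read 0.990 and 1.20 CPM with vehicle, 4.31 and 3.42 with ENPP1+ATP and 2.97 and 5.06 with AMP at 24 h, a rise of 1.84 ± 0.28 (6.03e-06) and 1.91 (2.57e-06).

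Col22a1 read 0.221 and 0.125 CPM with vehicle, 2.91 and 3.68 with ENPP1+ATP and 4.47 and 4.22 with AMP MCndM at 48 h. No treated library came near vehicle, and the rises of 4.21 ± 0.43 (edgeR adjusted p = 1.12e-08) and 4.62 ± 0.43 (2.20e-09) on the log2 scale were the largest of any called member with mean log2 CPM of at least 0. At 24 h it rose by 2.46 ± 0.44 (3.95e-05) and 3.03 (1.17e-06). Col2a1, the cartilage fibrillar chain, read 0.149 and 0.360 CPM with vehicle, 1.35 and 1.49 with ENPP1+ATP and 2.70 and 2.20 with AMP at 24 h. Its levels were low but separate, with rises of 2.62 ± 0.46 (3.21e-05) and 3.40 (6.49e-07).

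Of the members expressed above 5 CPM in vehicle, Col7a1, Col27a1, Col18a1 and Col5a3 had a called rise with ENPP1+ATP or AMP MCndM. Col7a1, the anchoring fibril chain, read 9.003 and 7.85 CPM with vehicle, 14.9 and 12.97 with ENPP1+ATP and 14.8 and 14.0 with AMP at 24 h. The groups did not overlap, and Col7a1 rose by 0.71 ± 0.13 (edgeR adjusted p = 7.43e-05) and 0.76 (2.50e-05), whereas its 48 h log2 changes were 0.27 (0.120) and 0.28 (0.104). Col27a1, a fibrillar chain of the cartilage growth plate, read 16.99 and 14.7 CPM with vehicle, 35.2 and 39.9 with ENPP1+ATP and 36.0 and 37.5 with AMP at 48 h. All treated libraries were higher, by 1.24 ± 0.10 (4.61e-10) and 1.21 ± 0.10 (6.90e-10) on the log2 scale. At 24 h the log2 changes were 0.04 and -0.06, and the tested differences between times were 1.20 (8.81e-07) and 1.27 (3.11e-07). With ATP MCndM at 24 h Col27a1 fell by 0.53 ± 0.11 (1.46e-03), a call lost without ATP replicate 2 or vehicle replicate 1.

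The multiplexin Col18a1, whose C-terminal fragment is endostatin, read 41.5 and 43.2 CPM with vehicle, 33.3 and 31.5 with ENPP1+ATP and 32.4 and 39.9 with AMP MCndM at 24 h, and 42.2 and 44.6, 52.6 and 49.9, and 59.4 and 60.04 CPM at 48 h. Treated libraries lay below vehicle at 24 h and above it at 48 h. The log2 changes were -0.39 ± 0.07 (edgeR adjusted p = 8.34e-05) and -0.22 (1.20e-02) at 24 h, then 0.24 (7.58e-03) and 0.46 (7.86e-06) at 48 h. The AMP call at 24 h was lost without AMP replicate 1 (0.350) or vehicle replicate 2 (0.0796), and the ENPP1+ATP call at 48 h without ENPP1+ATP replicate 1 (0.0535) or vehicle replicate 1 (0.0887). The difference between times was 0.63 with ENPP1+ATP (3.68e-05) and 0.68 with AMP (9.54e-06). Col15a1, the other multiplexin, read 0.604 and 0.673 CPM with vehicle at 24 h and was not called in these comparisons. Of the transmembrane members, Col25a1 fell at 48 h from 1.07 and 1.41 CPM to 0.390 and 0.379 with ENPP1+ATP (-1.68 ± 0.37, 5.57e-04) and to 0.313 and 0.248 with AMP (-2.14, 5.79e-05). Col23a1 rose at 24 h by 0.82 ± 0.32 (3.94e-02) and 0.78 (4.39e-02), from 1.23 and 0.697 CPM. Each Col23a1 call was lost when 1 of 3 libraries was left out, with adjusted p from 0.0814 to 0.305 for ENPP1+ATP replicate 1 or 2 or vehicle replicate 2, and from 0.0643 to 0.325 for AMP replicate 1 or 2 or vehicle replicate 2.

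ATP MCndM moved fewer members. At 24 h 16 of 38 fell, beside 6.32% of all genes tested, and 0 rose, beside 4.77%, with 11.1% called in either direction. DESeq2 likewise called 16. The 16 became 10 without ATP replicate 2 and 10 without vehicle replicate 1. At 48 h 4 fell (Col8a2, Col11a1, Col12a1 and Col4a5) beside 2.48%, and 2 rose (Col22a1 and Col5a3) beside 5.35%, or 6 in all beside 7.83%. The Col8a2 call at 48 h was lost without any 1 of the 4 libraries (adjusted p from 0.0712 to 0.455), and the Col22a1 call without ATP replicate 1 (0.498) or either vehicle library (0.105 and 0.334). Col5a1, not called in the main fit at 48 h, was called higher by DESeq2 (0.19, adjusted p = 0.0234). In edgeR it was called with DESeq2 size factors (0.0480), the replicate block (0.0380) or all genes of at least 1 count (4.44e-03). With all such genes Col6a2 was called lower (-0.17, 0.0122). The median log2 change of the members was -0.30 at 24 h and -0.12 at 48 h.

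ENPP1 MCndM called 0 members at 24 h and 0 at 48 h by edgeR's quasi-likelihood test, beside 0% of all genes tested at either time, and DESeq2 called 0 as well. At an unadjusted p under 0.05 there were 0 members at 24 h and 2 at 48 h, beside 1.39% and 4.16% of all genes tested. With no filter on low counts 3 of 44 members fell at 48 h (Col6a2, Col6a3 and Col8a1), beside 0.583% of all genes called. Col1a1 read 3959 and 3893 CPM with ENPP1 MCndM at 24 h and 3612 and 3743 at 48 h, close to the vehicle libraries at either time.

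Against ATP MCndM directly, ENPP1+ATP MCndM gave 12 falls beside 22.1% of all genes tested and 7 rises beside 21.8% at 24 h, and 20 falls beside 21.3% and 5 rises beside 18.2% at 48 h. In either direction these were 19 beside 43.9% and 25 beside 39.5%. Col1a1 fell by 0.38 (edgeR adjusted p = 1.64e-06) and 0.65 (3.26e-10) on the log2 scale, and Col11a1 by 0.87 (8.81e-08) and 1.20 (1.29e-09). The further fall below ATP MCndM held for both genes at both times.

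The change between times was tested as a difference of differences. With ENPP1+ATP MCndM 7 members moved up relative to vehicle between 24 and 48 h, beside 15.1% of all genes tested, and 3 moved down, beside 14.9%, so that 10 of 38 were called beside 30.0%. With AMP MCndM 16 moved up, beside 17.3%, and 3 down, beside 14.4%, so that 19 were called beside 31.7%. In vehicle alone, 1 member rose from 24 to 48 h (Col12a1, by 0.29), beside 1.68%, and 3 fell (Col5a3, Col5a1 and Col4a1), beside 3.20%, or 4 in all beside 4.88%. Of these, the Col12a1 call was lost without vehicle 24 h replicate 2 (adjusted p = 0.0688) or 48 h replicate 1 (0.156), and the Col4a1 call without 24 h replicate 1 (0.0703) or 48 h replicate 2 (0.153).

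Genes that build and handle collagen were followed as 4 lists drawn from textbook roles with earlier results of these data known. With ENPP1+ATP MCndM at 24 h, 16 of 21 tested genes of biosynthesis and secretion fell and 1 rose, and 7 of 12 for processing and cross-linking fell and 1 rose. Of receptors and uptake 6 of 8 fell, and of degradation 2 of 6, where 25.3% of all genes tested fell and 23.9% rose, so that the degradation list lay near the share of all genes. ATP MCndM at 24 h lowered 13 of 21, 4 of 12, 6 of 8 and 2 of 6 genes of these lists and raised 0, beside 6.32% and 4.77% of all genes. Against ATP directly, ENPP1+ATP MCndM gave 9, 6, 2 and 1 falls and 4, 1, 0 and 0 rises, beside 22.1% and 21.8%. The values that follow are against vehicle. Serpinh1, the collagen chaperone HSP47, averaged 693 CPM beside 1636 with vehicle (-1.24 ± 0.07, edgeR adjusted p = 1.65e-13). Lox, a lysyl oxidase that cross-links collagen, averaged 194 beside 591 CPM (-1.61 ± 0.07, 8.21e-14). Ddr2, a collagen receptor kinase of fibroblasts, averaged 253 beside 443 CPM (-0.80 ± 0.05). At 48 h 12 of 21 biosynthesis genes fell and 3 rose, 6 of 12 for processing fell and 3 rose, 6 of 8 receptors fell and 1 rose, and 2 of 6 for degradation fell and 2 rose, beside 24.4% and 20.8% of all genes. Among the rises at 48 h, Creb3l1, a transcription factor of collagen-secreting cells, rose by 0.75 ± 0.05 (4.61e-12), and Loxl2 by 1.33.

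Over the 20 CF libraries the genes whose log2 CPM followed Col1a1 most closely, of 10862 whose mean log2 CPM reached 2, were Sparc, Pex19, Lpcat3, Vash2 and Dpysl2. Pearson's r was 0.99 for the first 2 and 0.98 for the others. Because libraries cluster by medium, r describes the group differences they share and carries no p.

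In NRVM cultures the family took 3.27 ± 0.0963% of counts with vehicle (SD, n = 3). The labelled cell type was checked with markers. Summed cardiomyocyte markers were 26456 to 27345 CPM with vehicle, 24438 to 25535 with ENPP1+ATP and 15862 to 16991 with ATP. Summed fibroblast markers were 2873 to 2982 CPM with vehicle, 1210 to 1321 with ENPP1+ATP, 1405 to 1675 with AMP, 1119 to 1331 with ATP and 2770 to 2993 with ENPP1. Fibroblast RNA was thus present in the cultures, and the summed level was lower with ENPP1+ATP, AMP and ATP. Single markers were mixed, with 6 of 10 falling and 0 rising with ENPP1+ATP, 4 falling and 2 rising (Gsn and Dpt) with AMP, and 6 falling and 1 rising (Mfap5) with ATP. Summed endothelial markers were 27.5 to 34.4 CPM with vehicle, 43.4 to 48.5 with ENPP1+ATP, 37.3 to 98.2 with AMP and 61.7 to 86.0 with ATP, and summed macrophage markers 2.97 to 3.37, 7.03 to 8.34, 6.51 to 8.98 and 11.5 to 13.9. Of 7 endothelial markers tested 5 rose with ATP. The part of these cells in the collagen changes was not tested.

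The collagen share was 1.27 ± 0.0261% with ENPP1+ATP, 1.64 ± 0.0606% with AMP, 1.75 ± 0.100% with ATP and 3.22 ± 0.0346% with ENPP1 (SD, n = 3 each). Of 41 members, 33 were tested, and Col10a1, Col22a1, Col25a1, Col26a1, Col28a1, Col6a4, Col9a1 and Col9a2 were not. With ENPP1+ATP 24 of 33 fell, beside 27.4% of all genes tested, and 2 rose, beside 28.6%, or 26 in either direction beside 56.0%. With AMP 21 fell, beside 28.0%, and 2 rose, beside 29.2%, or 23 in all beside 57.2%. With ATP 20 fell, beside 29.7%, and 5 rose, beside 30.2%, or 25 in all beside 59.9%. ENPP1 alone called 0 (0% of all genes), with 1 member at an unadjusted p under 0.05 by edgeR, beside 5.15% of all genes, and 0 called by DESeq2. The median log2 change of members was -0.90 with ENPP1+ATP, -0.68 with AMP and -0.74 with ATP. Against ATP, ENPP1+ATP gave 14 falls beside 13.5% and 3 rises beside 14.1%, or 17 in all beside 27.5%.

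**Figure D3:**
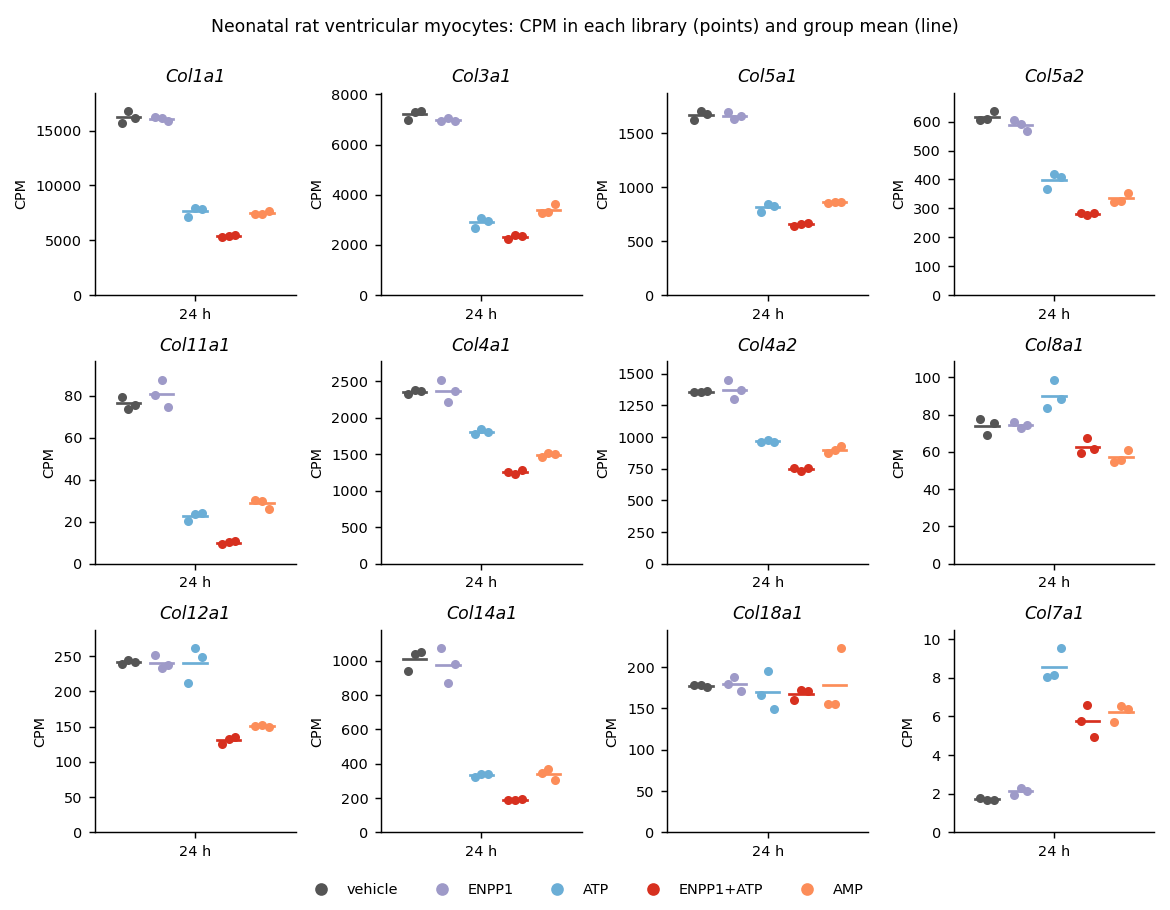
Levels of collagen genes in NRVM libraries. Each point is 1 library (CPM, axis from 0), with lines at the mean of the 3 libraries of a group. For Col1a1, Col3a1 and Col11a1 the ENPP1+ATP libraries are lowest, and vehicle and ENPP1 libraries lie together at the top.

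Col1a1 read 15735, 16790 and 16152 CPM with vehicle, 5302, 5422 and 5526 with ENPP1+ATP, 7400, 7433 and 7662 with AMP and 7146, 7928 and 7896 with ATP. The AMP and ATP groups overlapped each other and lay between vehicle and ENPP1+ATP. It fell by 1.58 ± 0.04 with ENPP1+ATP (edgeR adjusted p = 4.16e-32), by 1.11 with AMP (1.23e-26) and by 1.08 with ATP (1.55e-26) on the log2 scale. Against ATP, ENPP1+ATP lowered it by a further 0.50 (4.41e-14). Col3a1 read 6993, 7291 and 7331 CPM with vehicle and 2222, 2375 and 2367 with ENPP1+ATP, a fall of 1.63 ± 0.05 (4.00e-26). Col11a1 read 79.8, 73.8 and 75.8 CPM with vehicle, 9.16, 10.3 and 10.7 with ENPP1+ATP, 30.6, 30.1 and 26.2 with AMP and 20.5, 23.6 and 24.3 with ATP. All 4 groups were separate. Its falls were 2.92 ± 0.08 with ENPP1+ATP (3.29e-30), 1.40 with AMP (3.10e-21) and 1.75 with ATP (1.86e-24).

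Type V chains fell with all 3 agents in NRVMs. Col5a1 gave log2 changes of -1.35 with ENPP1+ATP, -0.96 with AMP and -1.04 with ATP, Col5a2 -1.13, -0.88 and -0.63, and Col5a3 -1.34, -0.75 and -1.05. Col4a1 read 2322, 2381 and 2371 CPM with vehicle and 1252, 1232 and 1286 with ENPP1+ATP, and its log2 changes were -0.91, -0.66 and -0.38. Col4a3 and Col4a4 were lower with ATP than with ENPP1+ATP, with Col4a4 at 298, 298 and 260 CPM with vehicle, 176, 179 and 162 with ENPP1+ATP and 150, 141 and 133 with ATP. Col4a3 rose by 0.97 ± 0.14 (edgeR adjusted p = 4.06e-05) and Col4a4 by 0.29 (1.15e-04) with ENPP1+ATP against ATP. Col6a1 and Col6a2 fell with ENPP1+ATP by 1.03 and 1.16, with AMP by 0.77 and 0.84 and with ATP by 1.02 and 1.00.

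Col14a1, a FACIT of soft connective tissue, read 943, 1041 and 1051 CPM with vehicle, 187, 186 and 192 with ENPP1+ATP, 347, 371 and 305 with AMP and 325, 338 and 339 with ATP. The treated libraries were all far below the lowest vehicle library, with ENPP1+ATP lowest. It fell by 2.43 ± 0.08 (edgeR adjusted p = 4.00e-11), 1.57 (2.59e-09) and 1.60 (1.83e-09) on the log2 scale. Col12a1 parted the agents. It read 238, 244 and 241 CPM with vehicle, 125, 132 and 136 with ENPP1+ATP and 212, 261 and 249 with ATP, so that ATP libraries spanned the vehicle ones. Its log2 change was -0.88 ± 0.05 with ENPP1+ATP (6.18e-16) and 0.00 with ATP (0.971), and -0.88 (4.82e-15) for ENPP1+ATP against ATP. Col8a1 also parted them, with -0.24 with ENPP1+ATP (1.04e-03), -0.38 with AMP (1.39e-06) and 0.28 with ATP (5.89e-05). Col8a2 read 22.7, 21.8 and 24.4 CPM with vehicle and 4.65, 5.17 and 4.72 with ENPP1+ATP, a fall of 2.24 ± 0.23 (1.92e-06). Among the other members that fell most, Col16a1 gave -1.51, -1.27 and -1.20 with ENPP1+ATP, AMP and ATP, and the transmembrane Col13a1 gave -1.45, -1.36 and -1.82. Col9a3 fell by 1.69 with ENPP1+ATP, in contrast to its rise in CFs. Col6a6 read 10.5, 10.1 and 12.02 CPM with vehicle and 1.77, 3.74 and 2.32 with ATP, a fall of 2.04 ± 0.39 (7.97e-04).

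The members that rose in NRVMs were few. Col7a1 read 1.79, 1.65 and 1.67 CPM with vehicle, 5.78, 6.58 and 4.91 with ENPP1+ATP, 5.73, 6.54 and 6.38 with AMP and 8.05, 8.13 and 9.52 with ATP. Every treated library was above every vehicle library, and Col7a1 rose by 1.75 ± 0.20 (edgeR adjusted p = 2.68e-10), 1.86 (4.25e-11) and 2.32 (1.56e-14). Col27a1 read 27.5, 30.9 and 28.4 CPM with vehicle, 37.1, 37.9 and 38.8 with ENPP1+ATP and 34.2, 35.6 and 34.0 with AMP, rises of 0.39 ± 0.07 (1.08e-05) and 0.26 (2.42e-03). ATP also raised Col19a1 by 1.27 (1.47e-03), Col24a1 by 0.81 (2.39e-04) and Col2a1 by 1.23 (0.0411). The Col2a1 call was lost under DESeq2 and without ATP replicate 1 or 3 or vehicle replicate 2 or 3. Col18a1 was not called with AMP, at 156, 155 and 222 CPM beside 178, 178 and 175 with vehicle. The AMP replicate at 222 CPM stood apart, and its summed endothelial markers were 98.2 CPM beside 37.3 and 44.7 in the other AMP libraries. Without it the log2 change was -0.20 ± 0.08 (0.0356). The part of endothelial RNA was not tested.

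The collagen-handling lists fell as well with ENPP1+ATP in NRVMs, with 17 of 20 tested genes of biosynthesis and secretion, 10 of 11 for processing and cross-linking, 6 of 8 receptors and 3 of 4 for degradation called lower, beside 27.4% of all genes tested. Among these lists Itga10 and Ctsk were the called rises, beside 28.6%. Biosynthesis and processing genes also fell mostly with AMP (17 of 20 and 10 of 11) and ATP (18 of 20 and 9 of 11). Of all genes tested, 28.0% fell with AMP and 29.7% with ATP. By contrast, of 4 degradation genes 2 rose (Mmp2 and Ctsk) and 1 fell (Mmp14) with either agent. Rises over all genes tested were 29.2% with AMP and 30.2% with ATP. The values that follow are for ENPP1+ATP. P4ha2, a prolyl hydroxylase, averaged 58.2 beside 132 CPM with vehicle (-1.18), Lox 70.2 beside 180 CPM (-1.35 ± 0.11, edgeR adjusted p = 7.79e-07) and Mrc2, an uptake receptor for collagen, 51.5 beside 178 CPM (-1.79).

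In the injured heart the family was read in 7255 ENPP1CKO and 5240 control cells, of 7460 and 5347 barcodes, 68 of which occur in both libraries. Total counts were 28039559 and 22746607 and medians were 3367 and 3701 counts per cell. With 1 library per genotype no test can be made, so each difference compares 2 libraries and the limits (95%, exact Poisson or binomial) cover counting error only. Counts came from cells clustered without collagen genes and named from collagen-free markers, the naming thresholds having been set after the clusters were seen. Enpp1 averaged 28.5 CPM in ENPP1CKO and 127 in control fibroblast-like cells (log2 ratio -2.15, limits -2.31 to -2.0), which matches the labels.

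Fibroblast-like cells held 95.3% of the ENPP1CKO and 88.0% of the control library's collagen counts. Of 39 members with at least 20 counts, 27 stood highest in fibroblast-like cells by CPM over both libraries. Collagen took 3.13% of fibroblast-like counts in ENPP1CKO (limits 3.12 to 3.14) and 3.20% in control (3.19 to 3.22), with 3661 and 1788 cells. It took 0.673% and 1.20% in smooth muscle or pericyte-like cells (158 and 73 cells), 0.283% and 0.342% in endothelial-like cells (932 and 192) and 0.0613% and 0.0674% in macrophage-like cells (2035 and 2523). Cells of the 2 clusters given no class (125 and 235) had 1.46% and 1.43%, and held 2.26% and 8.38% of the libraries' collagen counts. Free RNA in droplets can put counts of fibroblast genes into other classes, and its part here was not tested. In macrophage-like cells Col1a1 stood at 1.34% of the fibroblast-like level in ENPP1CKO and 1.46% in control.

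**Figure D4:**
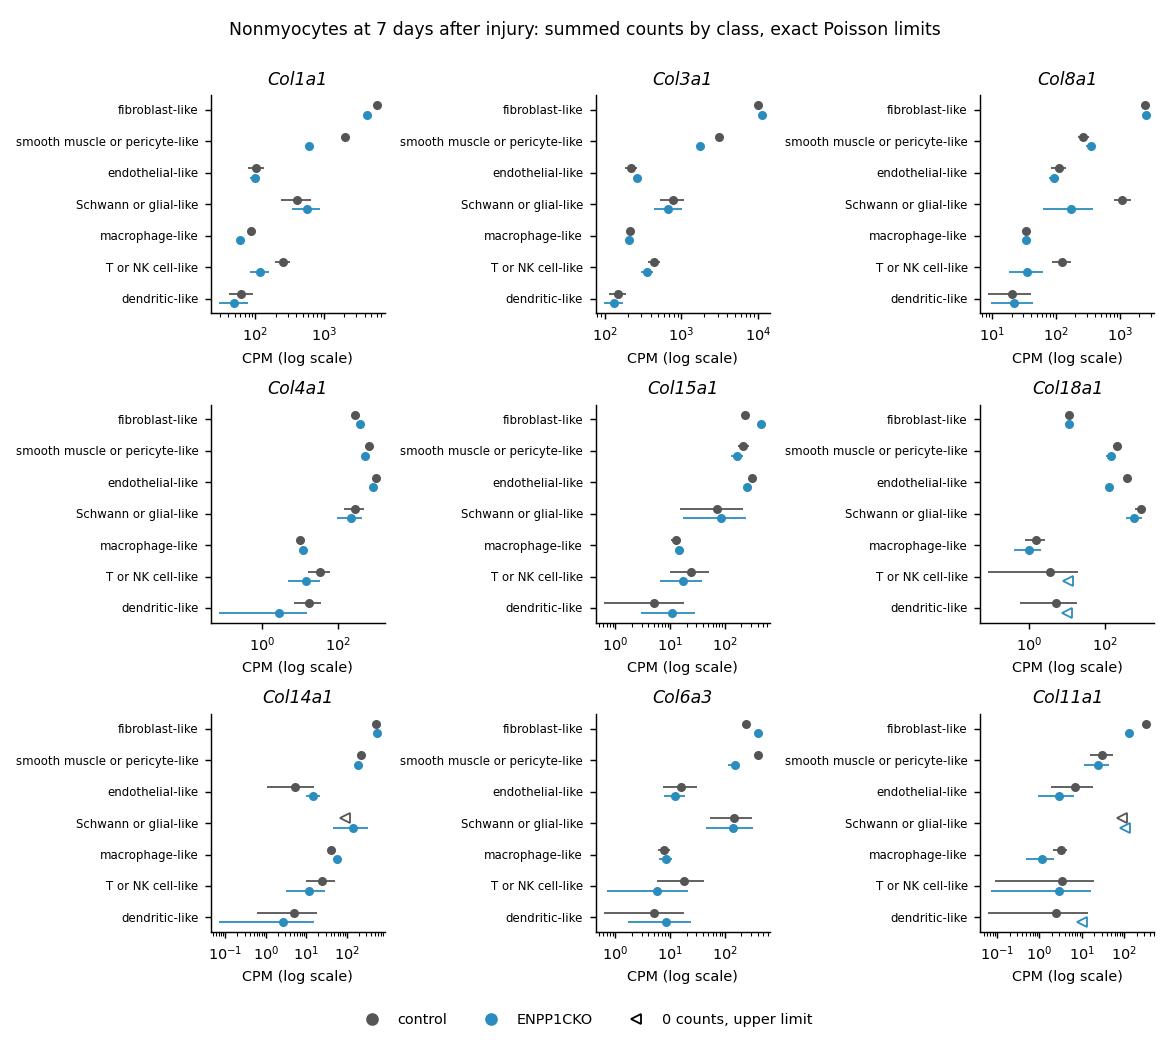
Collagen genes by cell class at day 7 after infarction. Levels are CPM of summed counts, with 1 value per class and library on a log axis, bars for 95% counting limits and open triangles for the upper limit where no count was seen. Fibroblast-like cells have the highest levels of Col1a1 and Col3a1, whereas Col4a1 peaks in endothelial-like cells.

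Col3a1 was the most abundant member, at 11239 CPM in ENPP1CKO and 10152 in control fibroblast-like cells (log2 ratio 0.15). Col1a2 stood at 7226 and 8130 CPM (-0.17), but its regulatory sequence also drives the Cre in ENPP1CKO animals. Col1a1 stood at 4368 and 5970 CPM, a log2 ratio of -0.45 (limits -0.47 to -0.43). Over the whole class the type III chain was thus higher and both type I chains lower in the ENPP1CKO library, but Col1a2 differed in sign between clusters of the class. Col11a1 stood at 129 and 328 CPM, a log2 ratio of -1.34 (-1.42 to -1.26), and Col5a1 at 409 and 531 CPM (-0.37). Col2a1 stood at 4.22 and 17.4 CPM (-2.04, limits -2.47 to -1.63).

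Other members were higher in the ENPP1CKO library. Col15a1, a multiplexin of basement membrane zones, stood at 463 and 236 CPM (log2 ratio 0.97, limits 0.90 to 1.04), Col5a3 at 44.8 and 24.4 (0.88, 0.66 to 1.09) and Col6a3 at 405 and 246 (0.72, 0.65 to 0.79). Col6a1 and Col6a2 had log2 ratios of 0.32 and 0.33, and Col4a1 and Col4a2 0.46 and 0.48. By role, fibrillar members summed to 24831 CPM beside 26571 in control, basement membrane members to 871 beside 635, beaded filament members to 1532 beside 1143 and multiplexins to 475 beside 248. Col8a1 (2564 and 2420 CPM), Col5a2 (1333 and 1348) and Col14a1 (547 and 537) differed little.

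Of the 36 members with at least 20 counts in these cells, 21 were higher and 15 lower in ENPP1CKO, and counting limits left out 0 for 15 and 9 of them. The share over all genes for such limits is not given here, so these counts describe the members alone. A log2 ratio past 0.5 was reached by 8 members upward (Col4a4, Col6a3, Col15a1, Col26a1, Col5a3, Col6a6, Col6a5 and Col22a1), beside 8.62% of the 12624 genes with as many counts, and by 6 downward (Col9a1, Col9a3, Col11a1, Col23a1, Col2a1 and Col11a2), beside 8.90%. Among these, the counting limits included 0 for Col6a5 (-0.35 to 3.32) and Col23a1 (-2.07 to 0.63). Col4a4, Col26a1, Col5a3 and Col9a3 differed in sign between clusters of the class. The median log2 ratio was 0.07 for members and 0.01 for all these genes. With cells thinned to 2000 counts, 15 of 32 members were higher and 17 lower, with a median of -0.03.

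**Figure D5:**
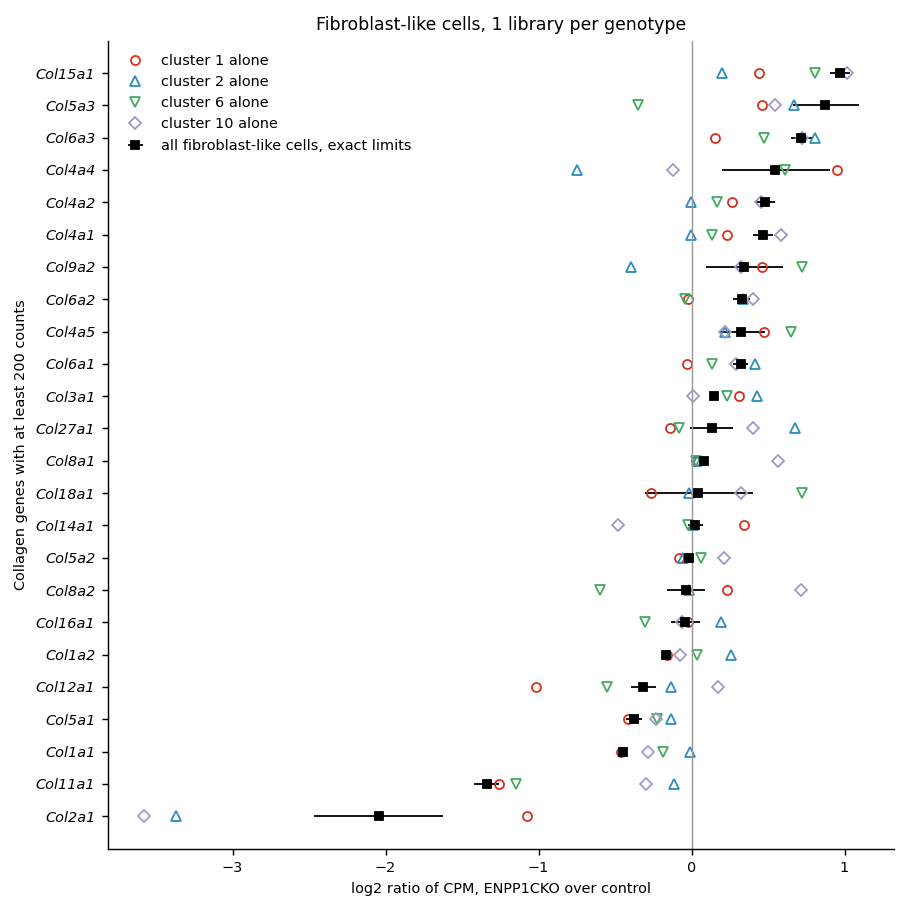
Log2 ratio (ENPP1CKO over control) of collagen genes in fibroblast-like cells at day 7. Points are ratios of CPM of summed counts with 95% counting limits, 1 library per genotype. Col11a1 lies at -1.34 and Col1a1 at -0.45 on the lower side, and Col15a1 at 0.97 and Col6a3 at 0.72 on the upper side.

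The fibroblast-like class was made of 4 clusters in unlike shares. Cluster 1, led by Actg2, Acta2, Acan and Cnn1, held 34.4% of the ENPP1CKO cells of this class and 68.3% of the control ones, and cluster 2, with hemoglobin genes and Thbs4 among its leading genes, held 47.6% and 17.5%. Their make-up therefore moves with the class values. Col1a1 had log2 ratios of -0.46, -0.01, -0.19 and -0.28 in clusters 1, 2, 6 and 10, and Col11a1 had -1.26, -0.11, -1.15 and -0.30. Col15a1 had 0.44, 0.20, 0.80 and 1.01, and Col6a3 had 0.15, 0.81, 0.47 and 0.72. Col1a2 had -0.16, 0.26, 0.04 and -0.08, and Col3a1 had 0.31, 0.43, 0.23 and 0.01. Of the 36 members counted, 8 kept one sign in all 4 clusters, with Col1a1, Col5a1 and Col11a1 lower and Col3a1, Col4a5, Col6a3, Col8a1 and Col15a1 higher. For Col8a1 the log2 ratios were 0.03, 0.03, 0.03 and 0.56 in clusters 1, 2, 6 and 10, near 0 in all but the last. Members without a ratio in at least 1 cluster, such as Col2a1 and Col22a1, could not qualify. The share over all genes is not given here, so the count describes the members alone. Col6a1, Col6a2, Col4a1, Col4a2 and Col5a3, higher over the class, each had a negative ratio in at least 1 cluster. Among Col1a1, Col3a1, Col6a3, Col11a1 and Col15a1, the limits included 0 for Col3a1 in cluster 10 (-0.04 to 0.06) and for Col1a1 in cluster 2 (-0.05 to 0.03). They also did for Col11a1 in clusters 2 (-0.32 to 0.10) and 10 (-0.78 to 0.19). Limits by cluster are not given here for Col4a5, Col5a1 and Col8a1. The collagen share was 3.37% in ENPP1CKO and 3.41% in control for cluster 1, 3.04% and 2.63% for cluster 2, 2.85% and 2.65% for cluster 6 and 3.09% and 3.01% for cluster 10. The lower share over the whole class in ENPP1CKO was thus seen in cluster 1 only, a split looked at after the data were seen.

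Shares of cells with a count gave the same order after cells were thinned to 2000 counts, which kept 3235 and 1630 fibroblast-like cells. Col11a1 had a count in 19.5% of the fibroblast-like cells from ENPP1CKO hearts and 33.0% of those from control hearts before thinning and in 13.4% and 23.2% after, beside 0.537% of ENPP1CKO endothelial-like cells. Col15a1 was seen in 62.2% and 45.0% before and 48.5% and 27.6% after. Median depth was 4029 and 5064 counts in fibroblast-like cells and 1472.5 in the ENPP1CKO endothelial-like cells.

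Outside fibroblast-like cells, Col4a1 and Col4a2 were highest in endothelial-like cells, at 877 and 758 CPM in ENPP1CKO and 1022 and 870 in control. Col18a1 stood there at 122 CPM in ENPP1CKO and 364 in control, from 211 and 204 counts. The gap lay in the larger endothelial-like cluster, at 111 and 390 CPM (log2 ratio -1.82, limits -2.13 to -1.51), while the smaller one had 229 and 239 CPM (-0.06, -0.84 to 0.75). Col18a1 was seen in 16.0% of ENPP1CKO and 50.5% of control endothelial-like cells, and in 21.4% and 42.0% after thinning, with 294 and 119 cells kept. In smooth muscle or pericyte-like cells Col1a1 stood at 611 and 2042 CPM, Col3a1 at 1741 and 3140 and Col4a1 at 523 and 672. Schwann-like cells, only 10 and 8 in number, had the highest level of Col18a1, at 566 and 846 CPM from 20 and 35 counts. Col27a1 also stood highest there, but from only 4 and 6 counts. Macrophage-like cells held Col14a1 at 59.0 and 40.8 CPM, which is 10.8% and 7.59% of the fibroblast-like level, above the 1.34% to 2.12% for Col1a1, Col1a2 and Col3a1.

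Of the 4 collagen-handling lists in fibroblast-like cells, those for biosynthesis and for processing had lower medians in ENPP1CKO and those for receptors and degradation did not. Past a log2 ratio of 0.5, 4 of 22 biosynthesis genes were lower (P4ha2, P4ha3, Serpinh1 and Fkbp10) and 1 higher (Colgalt2), beside 8.90% and 8.62% of all genes counted, with a list median of -0.15. Serpinh1 stood at 2237 and 3229 CPM (-0.53), and P4ha3 at 52.0 and 97.8 (-0.91). Of 10 genes for processing and cross-linking 2 were lower (Bmp1 and Adamts14) and 0 higher, with a median of -0.27. Of 9 receptor genes 2 were lower (Ddr1 and Lair1) and 1 higher (Itga10), with a median of 0.01, and of 4 degradation genes 0 were past 0.5 either way, with a median of 0.16.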

How the data were processed

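The authors deposited gene counts for 20 CF and 15 NRVM libraries and counts per gene and barcode for 2 single-cell libraries. The submitters' processing notes name STAR 2.5.3a, Cell Ranger and the builds mm10 and rn6 without saying which step used which, and the counter, its strand setting and gene annotation were not given in the sources used here. Such counts carry no correction for gene length or composition. Members, gene lists and tests were chosen with earlier results of these data known.

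Tests on the bulk counts used edgeR 4.0.16 under R 4.3.3 (filterByExpr, TMM factors, robust quasi-likelihood fit, 1 mean per group, no replicate block), with all CF libraries in one fit and all NRVM libraries in another. Calls used an adjusted p of 0.05 (Benjamini-Hochberg over all genes tested). For CFs the common biological coefficient of variation came to 0.0590 and for NRVMs to 0.0499. The fitting code was tested on simulated data. All deposited sample columns were used, with 0 left out. Alternatives were DESeq2 1.42.0, its size factors in edgeR, all genes with at least 1 count, a replicate block and leaving out each library. Members named in full were 7 fixed fibrillar chains (types I, III, V and XI), Col4a1, Col4a2, Col6a1, Col6a2, Col6a3, Col8a1, Col12a1, Col15a1 and Col18a1, plus up to 5 rising and 5 falling called members with mean log2 CPM of at least 0 per comparison. Col2a1 and Col4a5 in CFs and the members past the log2 ratio of 0.5 were named after their values were seen.

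Single-cell counts were processed with scanpy 1.11.5 (at least 200 genes, at most 20% mitochondrial counts, predicted doublets removed: 151 and 69 barcodes, 2.02% and 1.29%). Cells were clustered by leidenalg 0.10.2 at resolution 0.5 on 2000 variable genes without collagens. Counts were summed per class and library. Classes needed at least 0.7 of a list's markers and at most 0.5 of the next list's, which was set after clusters were seen, and clusters 9 and 12 stayed unnamed. Ratios needed 20 counts over both libraries.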

Additional observations from a re-analysis of the deposited data

Results flagged for a closer look

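The effect of MCndM on 10 members with ENPP1+ATP and on 19 with AMP differed between 24 and 48 h in CFs, by edgeR's quasi-likelihood test of the difference itself with an adjusted p under 0.05. These are 10 and 19 of 38 members, beside 30.0% and 31.7% of all genes tested, so the ENPP1+ATP count is not above the share over all genes. Values are the log2 change against vehicle at 48 h minus that at 24 h. With ENPP1+ATP MCndM the members that moved up relative to vehicle were Col22a1 1.76, Col27a1 1.20, Col5a1 1.07, Col5a3 0.75, Col4a2 0.64, Col18a1 0.63 and Col4a1 0.58. Those that moved down were Col8a2 -2.93, Col25a1 -1.81 and Col4a6 -0.80. The calls for Col22a1 and Col4a6 were each lost when any 1 of 5 libraries was left out (adjusted p from 0.0509 to 0.161 and from 0.0523 to 0.125), and that for Col25a1 without ENPP1+ATP 24 h replicate 1 (0.0661). DESeq2 added upward calls for Col3a1 (0.23, adjusted p = 0.0405) and Col8a1 (0.27, 0.0377). The replicate block in edgeR added Col3a1 (0.23, 0.0388) and Col6a1 (0.30, 0.0133).

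With AMP MCndM the members that moved up were Col5a1 1.35, Col27a1 1.27, Col3a1 1.19, Col5a3 0.98, Col4a2 0.82, Col4a1 0.81, Col11a1 0.79, Col6a1 0.78, Col18a1 0.68, Col1a2 0.66, Col4a5 0.62, Col16a1 0.49, Col5a2 0.48, Col12a1 0.47, Col8a1 0.40 and Col1a1 0.36. Those that moved down were Col2a1 -2.45, Col25a1 -1.82 and Col8a2 -1.53. The Col8a2 call was lost without vehicle 48 h replicate 1 (0.0519), and the Col2a1 call without that library or vehicle 24 h replicate 1. Col6a2, not called in the main fit, was called upward by DESeq2 (0.60, adjusted p = 0.0259) and with the replicate block in edgeR (0.59, 2.44e-04). It was also called without AMP 48 h replicate 2 (0.0251) or vehicle 48 h replicate 1 (0.0471) and with all genes of at least 1 count (1.34e-17). Both comparisons use the same vehicle libraries.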

How the results depend on the processing

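Over all genes tested the replicate numbers showed little pairing. Same-numbered libraries' deviations correlated at -0.11 to 0.28 over 90 CF values (6 over 0.1) and -0.17 to 0.12 over 30 NRVM pairs (1 over 0.1). Each pair of CF groups gave the same value for both replicate numbers, and those over 0.1 were all between vehicle and ENPP1 groups. Type VI members did follow the numbers in CFs. Their summed share of counts was higher in replicate 1 than in replicate 2 in every CF group except ATP MCndM at 48 h. It was 0.266% and 0.230% with vehicle at 24 h, and 0.223% and 0.238% with ATP at 48 h. With the replicate block 0 calls of members named in full were lost and 7 gained, Col4a6 with ENPP1+ATP in NRVMs, not named in full, lost its call, and the ENPP1+ATP count in CFs at 24 h was 24. Under all alternatives together, 2967 of the named members' values kept their direction and side of the threshold, 81 lost their call, 49 gained one and 1 was reversed, Col18a1 with AMP in NRVMs (-0.20 without AMP replicate 3, up to 0.0884 without AMP replicate 2).

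Leaving out each library gave 20 to 23 members called for ENPP1+ATP against vehicle at 24 h and 19 to 23 at 48 h, 21 to 25 and 17 to 20 for AMP, 10 to 15 and 4 to 5 for ATP, 0 to 0 for ENPP1, 15 to 18 and 18 to 23 for ENPP1+ATP against ATP, 3 to 3 for vehicle over time, and 7 to 11 and 18 to 22 for the change over time of ENPP1+ATP and AMP. In NRVMs the ranges were 24 to 26, 22 to 25, 24 to 26 and 17 to 17 for ENPP1+ATP, AMP, ATP and ENPP1+ATP against ATP. The ATP count at 24 h was 10 without ATP replicate 2 or vehicle replicate 1. With all genes with at least 1 count, ENPP1 at 48 h called 3 of 44 members (Col6a2, Col6a3 and Col8a1), beside 0.583% of all genes. DESeq2 called 24 and 24 for ENPP1+ATP in CFs. The collagen share difference in fibroblast-like cells (ENPP1CKO minus control, -0.0778 percentage points) was -0.0421 with cells thinned to 2000 counts, -0.0384 in the largest cluster, and 0.405, 0.204 and 0.0733 in clusters 2, 6 and 10, added after seeing the data. The members' median log2 ratio (0.07 over the class) was -0.03 after thinning, -0.02 in the largest cluster, -0.005 in cluster 2, 0.05 in cluster 6 and 0.25 in cluster 10, so its sign is not settled. The cause of these shifts was not tested. With 2 libraries per CF group and 1 per genotype, low members such as Col6a3 rest on few libraries.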

Other observations

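Cells of 2 clusters were given no class. Cluster 9 met all 8 macrophage markers and 0.7 of the fibroblast list, at a median of 6504 counts per cell, and cluster 12 met 0.6 of the fibroblast list at a median of 8048. In cluster 9 (94 ENPP1CKO and 119 control cells) Col1a1 stood at 2129 and 3451 CPM and Col11a1 at 91.2 and 214 CPM, a log2 ratio of -1.23 (limits -1.68 to -0.80). Col2a1 had 0 counts there in ENPP1CKO and 24 in control. In cluster 12 Col1a1 stood at 2418 and 2087 CPM (0.21, limits 0.07 to 0.36), Col11a1 at 41.3 and 15.6 CPM (1.40, -0.01 to 2.67) and Col8a1 at 305 and 38.3 CPM (2.99, 2.41 to 3.59). Col1a1 thus ran the other way from cluster 9, and the limits of Col11a1 included 0. In the same cluster 12 Col24a1, a minor fibrillar chain, stood at 36.2 and 43.5 CPM from 7 and 50 counts.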
